A study of Homo sapiens with 6 samples.

Results

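The 45 genes described here lie on the short arm of chromosome 17, in bands 17p11 to 17p12, in map order from MAP2K4 on the side of the arm's end to USP22 on the side of the centromere. They were chosen by the log2 difference between K562 cells resistant to methotrexate (MTX) and parental cells on these same arrays, as neighbours that shared a small rise, so their difference between resistant and parental cells is a description and carries no test. K562 is an established human erythroblastic leukemia line. Expression was measured on 6 Affymetrix HG U133 Plus 2.0 arrays, 3 of MTX-resistant K562 cells and 3 of parental K562 cells sensitive to MTX. The resistant cells could grow in MTX, whose concentration the labels write as 10e-5 M, and were kept in selective medium that had no glycine, hypoxanthine or thymidine, with dialysed serum. The parental cells were kept in Ham's F12 medium with fetal bovine serum. Effects of resistance, of medium and of any MTX present in the cultures therefore cannot be told apart. Separate cultures are not named in the labels, so p-values measure the spread between these samples, which may be technical.

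Of the 45 genes, 42 had at least 1 probe set (a set of oligonucleotides that reads the transcripts of a gene) that named no other gene. These were 99 probe sets, and 78 of them passed the filter on low signal, which left 38 genes with a tested probe set among 11799 genes tested in all. EPN2, an endocytic adaptor, was read only by probe sets that also name another gene and is given no value, and 2 further genes are not reported here. RASD1, MFAP4, SLC47A1 and ULK2 had 7 probe sets in all, and none exceeded 1.59 array medians on any array. These 4 genes were left out by the filter. Levels are given as multiples of the median signal of the same array, and of several tested probe sets the one that averaged highest on the log2 scale stands for the gene.

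This stretch of the genome is flanked and interrupted by low-copy repeats, nearly identical blocks of DNA that can misalign in meiosis. Deletion of the segment that holds RAI1 causes Smith-Magenis syndrome, and duplication of the same segment causes Potocki-Lupski syndrome. The genes have little in common in function: they include kinases, mitochondrial assembly factors, chromatin and ubiquitin genes and a tumor suppressor, FLCN. The short arm also carries genes with close copies nearby, such as TVP23B and TVP23C.

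Signal medians were 10.2 to 12.5 on the resistant arrays and 12.7 to 14.3 on the parental arrays. Resistant array 3 and parental array 1 stood apart from the others of their group. Rank correlations over the tested probe sets were 0.941 and 0.946 for resistant 3 with the other resistant arrays and 0.889 and 0.899 for parental 1 with the other parental arrays, against 0.968 between resistant 1 and 2 and 0.969 between parental 2 and 3. All 6 measured genes of a list of 9 erythroid markers averaged at least 1 array median, and their summed level was 829 to 998 array medians in resistant cells and 699 to 930 in parental cells. The 5 epithelial markers summed to 221 to 305 in resistant cells and 266 to 634 in parental cells. Of 5 fibroblast markers, 2 reached 1 array median, with sums of 5.90 to 8.69 in resistant cells and 7.25 to 7.93 in parental cells, and COL1A2, DCN and LUM stayed below it. Of 3 T cell markers, CD2 and CD3E stayed below 1 array median, and the list summed to 1.5 to 3.14 in resistant cells and 33.9 to 51.2 in parental cells. The 2 measured B cell markers summed to 1.10 to 3.73 in resistant cells and 0.636 to 1.68 in parental cells. The part of these markers in the differences below was not tested. In a bulk sample a change in the share of cells and a change in RNA per cell cannot be told apart.

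The 38 tested genes of 17p11 to 17p12 had a median log2 difference, resistant minus parental, of 0.64, or 1.56-fold. The middle of the distribution was narrow, with quartiles at 0.36 and 0.95, while the extremes were -1.79 for ADORA2B and 2.26 for SPECC1. The difference was above 0 for 32 genes (84.2%), against 51.4% of all tested genes. The 3 resistant arrays all lay above the 3 parental arrays for 26 genes (68.4%), against 16.1% of all tested genes, and all lay below for 2 genes, TVP23C and ALDH3A2 (5.26%), against 14.1%. These shares follow from how the genes were chosen. Relative to the mean of the parental arrays, the median gene was 0.72, 0.46 and 0.64 log2 units higher on resistant arrays 1, 2 and 3, and differed by 0.00064, 0.07 and -0.10 on parental arrays 1, 2 and 3. Over all tested genes the same medians were 0.16, -0.07 and 0.01 on the resistant arrays. The shift of the 38 genes was smallest on resistant 2. A rise on the resistant arrays follows from the choice of the genes, and parental medians near 0 follow from centring on the parental mean. Without resistant 3 and parental 1, the arrays that stood apart, the median of the 38 genes was 0.65 and 32 were above 0. The remaining arrays were also among those used for the choice.

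**Figure D1:**
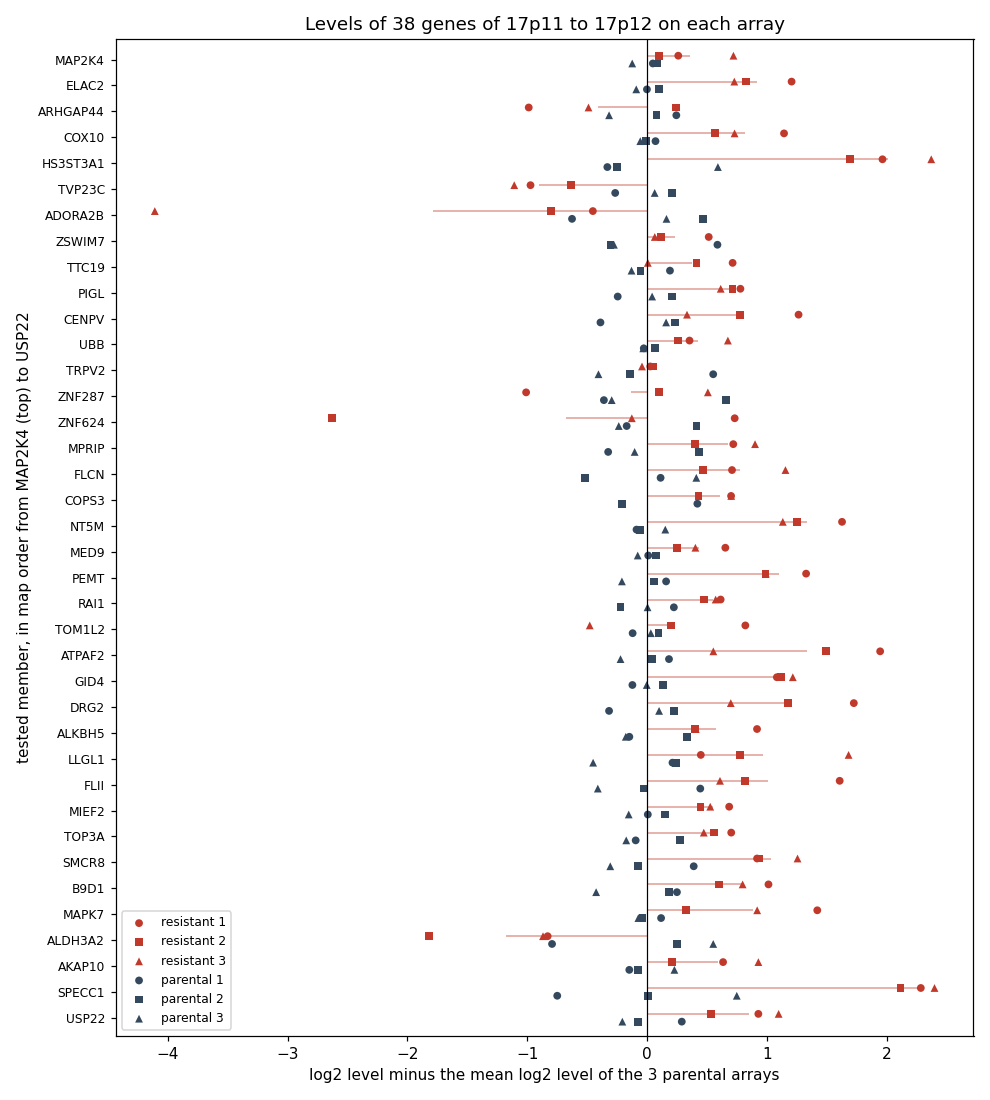
Level of the 38 tested genes on each array, in map order from MAP2K4 (top) to USP22 (bottom). The x axis is the log2 level minus the mean log2 level of the 3 parental arrays, red symbols are the 3 resistant arrays, dark symbols the 3 parental arrays, and the red line runs to the resistant mean. For 26 genes all red symbols lie right of all dark ones, while 6 genes, of which ADORA2B is the lowest, have resistant means to the left of 0.

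A probe set was called when it passed an adjusted p of 0.05 (limma, Benjamini-Hochberg over 26692 probe sets) and a 2-fold difference, and 4 of the 38 genes were called higher (1.3% of all tested genes) and 0 lower (1.45%). At an unadjusted p under 0.05 the same fit counted 21 higher and 2 lower, against 10% and 9.93% of all tested genes. A fit with an intensity trend called 7 higher (2.33% of all tested genes), and the methods' t-test called 1 (0.381%). Since the genes were chosen by this difference, the counts describe the choice and test nothing. SPECC1, a coiled-coil protein that binds the cytoskeleton, had 8.58, 7.62 and 9.28 array medians in resistant cells and 1.05, 1.77 and 2.96 in parental cells. HS3ST3A1, a sulfotransferase that modifies heparan sulfate chains, had 27.6, 22.9 and 36.6 array medians in resistant cells and 5.64, 5.95 and 10.7 in parental cells. For both genes the lowest resistant array lay well above the highest parental array. Their log2 differences were 2.26 ± 0.39 for SPECC1 and 2.01 ± 0.33 for HS3ST3A1 (SE, n = 3 each), or 4.8-fold and 4.02-fold. NT5M, the mitochondrial nucleotidase that removes phosphate from dUMP and dTMP, had 8.46, 6.52 and 6.01 array medians in resistant cells and 2.58, 2.63 and 3.05 in parental cells (log2 difference 1.33 ± 0.23). GID4, the subunit through which the CTLH ubiquitin ligase recognises its substrates, had 12.8, 13.1 and 14.1 array medians in resistant cells and 5.57, 6.63 and 6.05 in parental cells (log2 difference 1.14 ± 0.20). GID4 had the smallest SE of the 38 genes. The calls themselves depended on single arrays: the number of called genes was 0 without resistant 1, 2 or 3 or without parental 2, 1 without parental 1 and 2 without parental 3, whereas the log2 differences stayed between 1.89 and 2.64 for SPECC1, 1.82 and 2.30 for HS3ST3A1, 1.19 and 1.44 for NT5M, and 1.07 and 1.20 for GID4. Without both resistant 3 and parental 1 they were 1.82, 1.66, 1.39 and 1.03 for these 4 genes in the same order, and none of the 4 was called.

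The promoters of HS3ST3A1 and NT5M are printed as those of called genes, and those of TOP3A and SMCR8 because the genes start 299 bases apart on opposite strands and both had higher levels in resistant cells. Each sequence is the 300 bases around the start of the gene, from RefSeq on GRCh38.p14, 5′ to 3′ on the strand of the gene. They span chr17:13601880-13602179 on the minus strand for HS3ST3A1, chr17:17303123-17303422 on the plus strand for NT5M, chr17:18314945-18315244 on the minus strand for TOP3A and chr17:18315043-18315342 on the plus strand for SMCR8. Capitals mark matches on either strand to the motifs that were searched.
HS3ST3A1: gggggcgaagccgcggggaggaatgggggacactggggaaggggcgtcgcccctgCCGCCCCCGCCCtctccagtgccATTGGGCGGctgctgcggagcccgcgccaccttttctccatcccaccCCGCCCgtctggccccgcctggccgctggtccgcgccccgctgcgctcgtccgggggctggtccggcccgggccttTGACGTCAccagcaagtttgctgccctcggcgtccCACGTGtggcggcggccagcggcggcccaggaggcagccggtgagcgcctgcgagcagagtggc
NT5M: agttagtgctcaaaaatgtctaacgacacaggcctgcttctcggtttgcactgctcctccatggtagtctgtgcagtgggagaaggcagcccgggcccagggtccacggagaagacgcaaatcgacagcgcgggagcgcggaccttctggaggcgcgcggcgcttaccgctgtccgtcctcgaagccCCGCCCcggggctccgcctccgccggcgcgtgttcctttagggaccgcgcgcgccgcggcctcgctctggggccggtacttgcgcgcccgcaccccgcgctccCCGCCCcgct
TOP3A: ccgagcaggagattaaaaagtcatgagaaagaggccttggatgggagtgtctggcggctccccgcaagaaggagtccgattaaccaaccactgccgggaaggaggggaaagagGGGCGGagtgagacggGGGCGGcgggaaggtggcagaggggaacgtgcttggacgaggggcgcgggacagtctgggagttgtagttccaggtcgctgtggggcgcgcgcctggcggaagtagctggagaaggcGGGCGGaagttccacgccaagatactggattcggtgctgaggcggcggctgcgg
SMCR8: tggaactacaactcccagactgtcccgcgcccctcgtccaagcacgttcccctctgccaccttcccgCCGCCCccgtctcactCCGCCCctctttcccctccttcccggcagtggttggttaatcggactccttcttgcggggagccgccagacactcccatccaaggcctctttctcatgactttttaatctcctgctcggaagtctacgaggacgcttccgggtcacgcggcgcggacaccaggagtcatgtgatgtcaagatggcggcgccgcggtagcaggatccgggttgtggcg
The HS3ST3A1 window held 4 matches to GGGCGG, the letters of a GC box, 1 of which overlapped a CCAAT match, and 1 match each to CACGTG and TGACGTCA. The GGGCGG matches numbered 2 in NT5M, 3 in TOP3A and 2 in SMCR8, and the TOP3A and SMCR8 windows shared 202 bases, read on opposite strands. Of the 45 genes, 40 had a promoter in the table, and 1 promoter was kept for each. The comparison sets were not limited in this way and can hold several promoters of a gene (13906 promoters, against 11799 tested genes). GGGCGG was found in 32 of the 40 (80%), against 65.8% of the promoters of tested genes and 45% of all promoters in the table. CCAAT was found in 35% of the 40, against 35% of the promoters of tested genes and 34.6% of all. CACGTG (7.5%, against 9.64% and 7.26%), AGATAA (2.5%, against 5.98% and 10.3%) and TGACGTCA (2.5%, against 2.86% and 1.85%) were rare in each set. The median GC content was 70% over the 40 promoters, 64.7% over those of tested genes and 58.7% over all. ZSWIM7 and TTC19 were likewise read away from each other on opposite strands, with starts 120 bases apart and windows that shared 219 bases. A match is a run of letters, and binding was not measured.

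Counts by role, here and below, follow from the choice of the genes. Over all tested genes 51.4% were above 0, and 16.1% had no overlap with resistant cells higher. Among the 7 tested signalling genes the median log2 difference was 0.59, and 5 of them were above 0. MAP2K4, the kinase that activates JNK, had 12.9, 11.6 and 17.8 array medians in resistant cells and 11.2, 11.4 and 9.91 in parental cells. The groups did not overlap but lay close, and the log2 difference was 0.36 ± 0.24. MAPK7, the kinase ERK5, had 5.54, 2.59 and 3.91 array medians in resistant cells and 2.24, 2.02 and 1.97 in parental cells (log2 difference 0.89 ± 0.31). DRG2, a GTP-binding protein of the DRG family, had 33.4, 22.9 and 16.4 array medians in resistant cells and 8.13, 11.8 and 10.9 in parental cells (log2 difference 1.20 ± 0.32). DRG2 was thus higher on every resistant array, by a margin that varied among the 3. AKAP10, which anchors protein kinase A, had 9.07, 6.74 and 11.1 array medians in resistant cells and 5.27, 5.55 and 6.84 in parental cells (log2 difference 0.59 ± 0.26), and resistant 2 lay below parental 3. MPRIP, a protein that binds myosin phosphatase, differed by 0.67 ± 0.28 with overlapping groups. ADORA2B, the low-affinity adenosine receptor, had 3.70, 2.90 and 0.294 array medians in resistant cells and 3.28, 7.01 and 5.66 in parental cells. Its log2 difference of -1.79 ± 0.96 was the lowest of the 38, with resistant 3 far below the other resistant arrays. ARHGAP44, a GTPase-activating protein, was near 1 array median throughout and differed by -0.41 ± 0.36.

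All 6 mitochondrial genes were tested and all were above 0, with a median of 0.86 and a range of 0.38 to 1.33. ELAC2, the ribonuclease that trims the trailing end of precursor tRNAs, had 35.5, 27.3 and 25.5 array medians in resistant cells and 15.4, 16.5 and 14.5 in parental cells (log2 difference 0.92 ± 0.22). COX10, an enzyme of the pathway to heme A for cytochrome c oxidase, had 24.7, 16.6 and 18.5 array medians in resistant cells and 11.7, 11.1 and 10.7 in parental cells (log2 difference 0.81 ± 0.23). For both genes every resistant array exceeded every parental array. ATPAF2, an assembly factor of ATP synthase, differed by 1.33 ± 0.38, and MIEF2, which recruits the fission protein DNM1L to mitochondria, by 0.55 ± 0.21, both without overlap. TTC19, an assembly factor of respiratory complex III, differed by 0.38 ± 0.26 and was the only gene of the 6 whose groups overlapped.

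The 5 ubiquitin and lysosome genes had a median of 0.78, and none had overlapping groups (16.1% of all tested genes had none with resistant cells higher). UBB, which encodes polyubiquitin, had 581.6, 543.1 and 726.0 array medians in resistant cells and 446.5, 476.0 and 445.1 in parental cells. This was the smallest difference of the group, 0.43 ± 0.21 on the log2 scale. FLCN, the Birt-Hogg-Dubé tumor suppressor that acts on lysosomes, had 6.91, 5.86 and 9.41 array medians in resistant cells and 4.57, 2.95 and 5.62 in parental cells (log2 difference 0.78 ± 0.32). COPS3, a subunit of the COP9 signalosome, had 84.3, 69.8 and 84.3 array medians in resistant cells and 69.3, 44.9 and 44.9 in parental cells (log2 difference 0.61 ± 0.26). FLCN and COPS3 were each separated by a small gap, since parental 3 came close to resistant 2 for FLCN and parental 1 to resistant 2 for COPS3. SMCR8, which acts in autophagy with C9orf72, had 33.4, 33.9 and 42.2 array medians in resistant cells and 23.1, 16.8 and 14.3 in parental cells (log2 difference 1.03 ± 0.26), a clear gap between the groups.

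The 9 tested genes of chromatin, transcription and the genome had a median of 0.55, with 7 above 0 and 6 without overlap (51.4% and 16.1% of all tested genes). RAI1, the dosage-sensitive gene of Smith-Magenis syndrome, had 19.7, 17.8 and 19.1 array medians in resistant cells and 15, 11 and 12.9 in parental cells (log2 difference 0.55 ± 0.21). ALKBH5, a demethylase of methyladenosine in RNA, had 32.4, 22.6 and 22.8 array medians in resistant cells and 15.5, 21.6 and 15.2 in parental cells (log2 difference 0.57 ± 0.26). The groups did not overlap for either gene, although parental 2 came close to the resistant arrays for ALKBH5. TOP3A, a topoisomerase that resolves recombination intermediates, had 8.48, 7.66 and 7.24 array medians in resistant cells and 4.88, 6.31 and 4.62 in parental cells (log2 difference 0.57 ± 0.22). USP22, the deubiquitinase of the SAGA complex, had 74.7, 56.7 and 84.0 array medians in resistant cells and 48.0, 37.2 and 34 in parental cells (log2 difference 0.85 ± 0.26). All resistant arrays exceeded all parental arrays for both. CENPV, a centromere protein, differed by 0.79 ± 0.32 and MED9, a Mediator subunit, by 0.43 ± 0.21, both without overlap. ZSWIM7, a recombination factor, differed by 0.23 ± 0.31. The zinc finger genes ZNF287 and ZNF624, near 1 array median, differed by -0.14 ± 0.47 and -0.68 ± 0.82, so the SE exceeded the size of the difference.

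Genes of membranes, lipids and transport were the most divided. The 7 tested had a median of 0.18, 3 with all resistant arrays higher and 2 with all resistant arrays lower (16.1% and 14.1% of all tested genes). Besides HS3ST3A1, the higher ones were PEMT, which methylates phosphatidylethanolamine to phosphatidylcholine (1.10 ± 0.22 on the log2 scale), and PIGL, an enzyme of GPI anchor synthesis (0.70 ± 0.22). PEMT had 15.5 to 19.6 array medians in resistant cells and 6.77 to 8.74 in parental cells. TRPV2, a cation channel, differed by 0.01 ± 0.29, and TOM1L2, an endosomal sorting protein, by 0.18 ± 0.35. ALDH3A2, the fatty aldehyde dehydrogenase, had 1.10, 0.552 and 1.07 array medians in resistant cells and 1.13, 2.31 and 2.86 in parental cells (log2 difference -1.17 ± 0.45). TVP23C, a Golgi membrane protein, had 1.26, 1.59 and 1.15 array medians in resistant cells and 2.06, 2.85 and 2.58 in parental cells (log2 difference -0.91 ± 0.24). The ALDH3A2 groups were nearly in contact, at 1.10 in resistant 1 and 1.13 in parental 1, while those of TVP23C were apart. TVP23B, a close copy of TVP23C that lies in the same stretch, had 16.5 to 20.2 array medians in resistant cells and 8.91 to 9.80 in parental cells (log2 difference 0.99 ± 0.20, adjusted p = 0.0651 by limma). Signal can be shared between such copies, so neither value is certain to belong to its gene alone.

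The 4 tested genes of the cytoskeleton and cilium had a median of 0.99, all without overlap (16.1% of all tested genes, resistant higher). Beside SPECC1, FLII, a regulator of actin, differed by 1.01 ± 0.36, LLGL1, a cell polarity protein, by 0.97 ± 0.39, and B9D1, a protein of the ciliary transition zone, by 0.80 ± 0.27. FLII had 17.4 to 34.7 array medians in resistant cells and 8.57 to 15.5 in parental cells. LLGL1 was highest on resistant 3, at 8.82, against 3.76 and 4.70 on resistant 1 and 2 and 2.02 to 3.26 in parental cells.

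Probe sets that did not represent their gene gave a further reading of the same genes. There were 40 such tested probe sets for 24 of the genes. They share the RNA and the arrays with the representative probe sets, and some reached the signal filter only through the resistant arrays, which fixes their sign, so they are given by gene and not counted. The 2 GID4 probe sets differed by 1.14 and 1.42. The other SPECC1 probe sets differed by 2.24 and 2.51, but their lowest parental values were 0.0699 and 0.0769 array medians, in the range of background, so these sizes are uncertain. The 5 SMCR8 probe sets differed by 0.68 to 1.27, the highest value from a probe set under 1 array median on every parental array. Signs disagreed within 4 genes. COX10 had another probe set at -0.09, LLGL1 at -0.75, MPRIP had a pair at -0.41 and -0.04, and FLCN a pair at -0.48 and -0.37. These probe sets averaged 1.11 to 3.35 array medians over the 6 arrays. For MAPK7 the other probe set gave 2.41, against 0.89 for the representative, and was at only 0.374 to 1.13 array medians in parental cells.

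**Figure D2:**
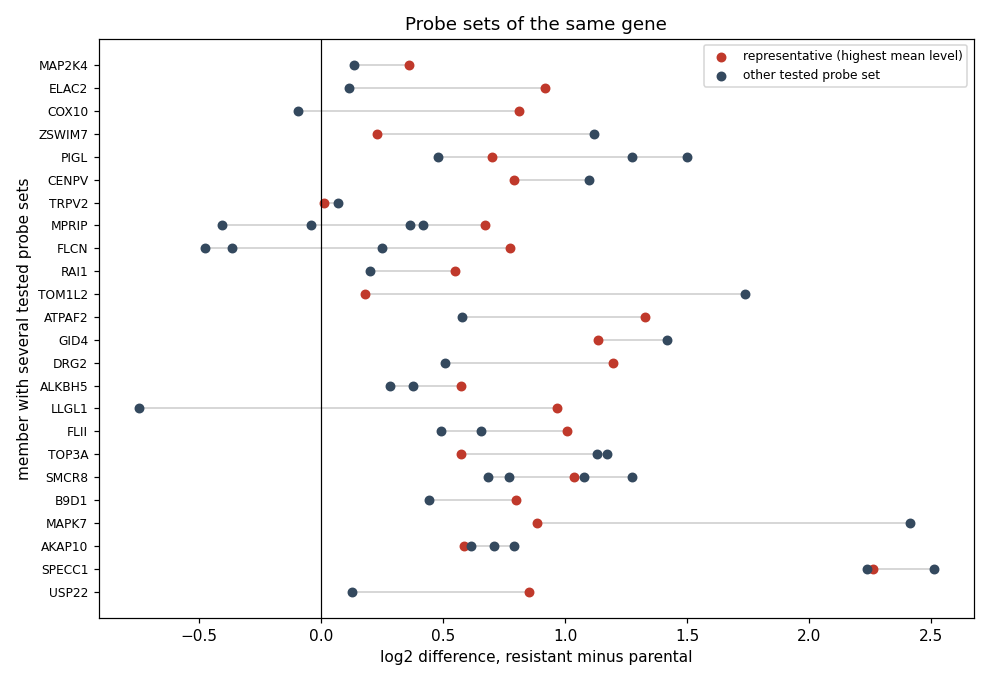
Log2 difference, resistant minus parental, of every tested probe set of the 24 genes with more than 1 of them. Red points represent the gene, and dark points are its other probe sets, some of which are in the range of background in parental cells. All red points lie right of 0, and dark points lie left of it for COX10, MPRIP, FLCN and LLGL1.

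The annotation lists 303 genes of any kind between MAP2K4 and USP22, of which 87 had a probe set that named no other gene and 54 were tested. Besides the 38 genes above these were 16 others, taken whatever their value. Their median was 0.46, and it was 0.71 without resistant 3 and parental 1. On all arrays 13 were above 0 (81.3%, against 51.4% of all tested genes). For 7 the groups did not overlap, with resistant cells higher (43.8%, against 16.1%). Of the 16 others, 2 passed the test with the resistant arrays higher (1.3% of all tested genes). MGC12916, an uncharacterised transcript, had 17.2, 13.5 and 13.6 array medians in resistant cells and 2.16, 1.18 and 2.35 in parental cells (log2 difference 3.01 ± 0.32, adjusted p = 0.00836 by limma). HS3ST3B1, a close relative of HS3ST3A1 in the same enzyme family and a near neighbour, had 17.3, 17.3 and 25.7 array medians in resistant cells and 6.50, 8.21 and 7.09 in parental cells (log2 difference 1.45 ± 0.25, adjusted p = 0.0419 by limma). The rise of MGC12916 passed without any single array, and that of HS3ST3B1 missed the threshold without each of the 6 arrays in turn, with adjusted p up to 0.132 and log2 differences of 1.26 to 1.54, and without both resistant 3 and parental 1 (1.18). TRIM16, a ubiquitin ligase with close copies nearby, differed by 2.23 ± 0.53 (adjusted p = 0.0943), and SREBF1, the transcription factor of lipid synthesis, by 0.26 ± 0.36 (adjusted p = 0.735). SHMT1, the cytosolic serine hydroxymethyltransferase of folate metabolism, was not tested, since its 2 probe sets that name no other gene had 0.504 to 1.42 array medians in resistant cells and 0.126 to 1.28 in parental cells. MAP2K3, a kinase of the p38 pathway, was read only by probe sets that name several genes and has no value here.

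The shift did not end at the outermost genes. The 40 tested genes next to MAP2K4 on the side of the arm's end had a median of 0.55. Of them 30 were above 0 (75%, against 51.4% of all tested genes) and 14 had no overlap (35%, against 16.1%). The nearest, ZNF18, a zinc finger gene, had 4.91, 4.51 and 4.46 array medians in resistant cells and 2.00, 2.05 and 2.27 in parental cells (log2 difference 1.14 ± 0.19, adjusted p = 0.0407 by limma). ADPRM, a hydrolase of ADP-ribose, differed by 1.40 ± 0.25 (adjusted p = 0.0444). On the other side only 6 tested genes lay between USP22 and WSB1, the first gene of the long arm used here, with a median of 0.77. The nearest, LINC01563, was near 1 array median and differed by -0.80 ± 0.70 (adjusted p = 0.578), while DHRS7B and TMEM11, the next in order, differed by 0.86 ± 0.22 and 0.97 ± 0.21 (adjusted p = 0.106 and 0.0793). LOC105371703 fell to 2.25, 1.16 and 0.765 array medians in resistant cells, against 23.2, 17.9 and 16.4 in parental cells (log2 difference -3.91 ± 0.42, adjusted p = 0.00836). Across the centromere, the first 40 tested genes of the long arm had a median of 0.66, with 32 above 0 (80%) and 17 without overlap (42.5%). There BLMH, a cysteine protease, rose by 1.73 ± 0.20 (adjusted p = 0.0112), TMEM97, a sterol-responsive membrane protein, by 1.58 ± 0.26 (adjusted p = 0.0369), and NUFIP2, an RNA-binding protein, by 1.25 ± 0.21 on the log2 scale (adjusted p = 0.0400). The calls of ZNF18, ADPRM, TMEM97 and NUFIP2 were each lost when 5 of the 6 arrays were left out in turn, with adjusted p up to 0.170, 0.162, 0.147 and 0.139. That of BLMH was lost without parental 2, resistant 1 or resistant 2 (adjusted p = 0.0634, 0.0526 and 0.0521), and that of LOC105371703 without resistant 2 (adjusted p = 0.0530). Without both resistant 3 and parental 1 the medians of the 40 genes were 0.54 on the short arm and 0.88 on the long arm, and ZNF18, ADPRM and NUFIP2 were not called.

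In runs of 20 tested genes along the chromosome, the 4 runs next to MAP2K4 on the short arm, from ZNF18 to PFN1, had medians of 0.44 to 0.64, and 15 to 16 of the 20 genes in each were above 0. The next 3 runs toward the end of the arm, from RNF167 to RPH3AL, had medians of -0.37 to 0.09. On the other side, the 5 runs from LINC01563 to CISD3 had medians of 0.59 to 0.72, with 13 to 18 genes above 0 in each. The 20 runs from PCGF2 to CSNK1D, near the end of the long arm, had medians of -0.38 to 0.07. The 17p11 to 17p12 genes therefore sat inside a longer stretch with medians of similar size, which spanned the centromere and ended between PFN1 and RNF167 on the short arm and between CISD3 and PCGF2 on the long arm, to within the length of a run. The rest of the short arm beyond the 40 flanking genes had a median of 0.09 over 101 genes, and the rest of the long arm -0.03 over 467. Both of these sets still include genes of the longer stretch, since they begin after 40 genes and not at its ends. The median of a whole chromosome was 0.05 for chromosome 17, and between -0.64 and 0.26 for the others with at least 50 tested genes. Such medians can hide a stretch of this length. Runs of 20 genes were not taken on other chromosomes, so whether similar stretches occur there was not tested.

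**Figure D3:**
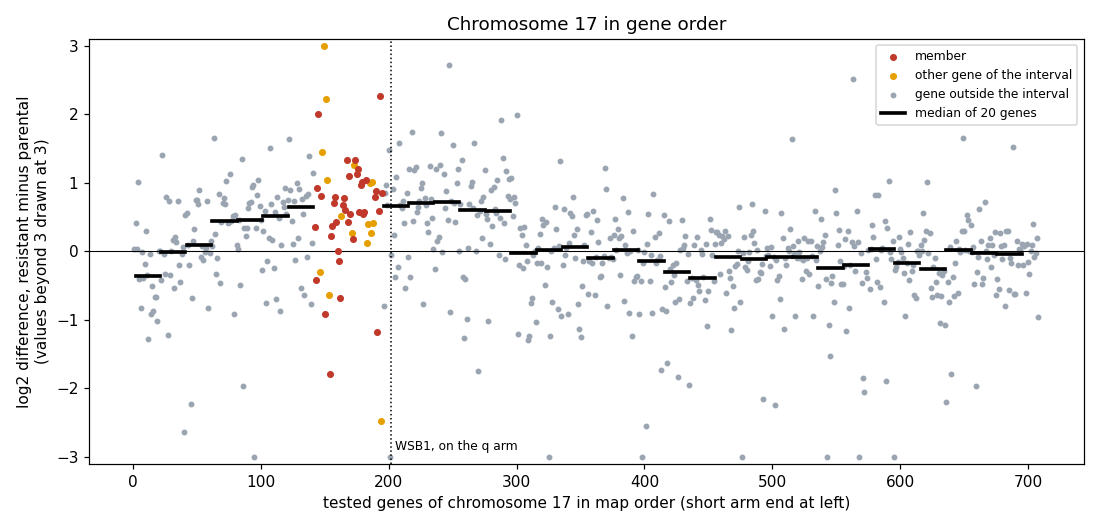
Log2 difference, resistant minus parental, of each tested gene of chromosome 17 against its place in map order, short arm end at left; values beyond 3 either way are drawn at 3. Red points are the 38 genes described here, orange points the 16 other genes between MAP2K4 and USP22, and black bars medians of 20 genes outside that interval. The bars lie at 0.44 to 0.72 over 4 runs left and 5 runs right of the interval and at -0.38 to 0.09 beyond them.

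Several of the genes encode subunits of complexes or steps of pathways whose other parts lie on other chromosomes or elsewhere on chromosome 17. A list of 69 such partners of 18 of the genes was set by function, with earlier results of these data known, and 66 were tested. Their median was 0.11, with 40 above 0 (60.6%, against 51.4% of all tested genes). The groups did not overlap for 10 with resistant cells higher (15.2%, against 16.1%) and for 13 with resistant cells lower (19.7%, against 14.1%), shares near those of all genes. None was called higher (1.3% of all tested genes) and 1 was called lower (1.45%). At an unadjusted p under 0.05 the limma fit counted 6 of the 66 higher and 10 lower, against 10% and 9.93% of all tested genes. The fit with an intensity trend called 0 higher (2.33% of all tested genes) and 2 lower. The methods' t-test called 0 higher (0.381%) and 0 lower. Shares called lower over all genes are not given for these other fits. The called partner was ATPAF1, the other assembly factor of the ATP synthase head, which fell to 7.38, 6.33 and 6.59 array medians in resistant cells, against 22.1, 22.1 and 16.6 in parental cells (log2 difference -1.57 ± 0.22, adjusted p = 0.0221 by limma). The call was lost when 5 of the 6 arrays were left out in turn, with adjusted p up to 0.108 and differences of -1.71 to -1.5, and also without both resistant 3 and parental 1 (-1.49). ATPAF2 itself lay at 10.6, 7.76 and 4.04 array medians in resistant cells and 3.13, 2.84 and 2.36 in parental cells.

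COPS3 differed by 0.61, while the median of 8 other COP9 signalosome subunits was 0.09 (-0.51 for COPS6 to 0.38 for COPS5). GID4 differed by 1.14, and 9 other CTLH ligase genes had a median of 0.07, from -0.63 for ARMC8 to 0.83 for YPEL5. B9D1 differed by 0.80, and its 7 partners had a median of -0.08, from -2.49 for CC2D2A to 0.82 for TMEM67. FLCN differed by 0.78, against -0.33 and -0.65 for its binding partners FNIP1 and FNIP2. SMCR8 differed by 1.03, against -0.18 for C9orf72 and 0.39 for WDR41, the other parts of its complex. TOP3A differed by 0.57, while BLM, RMI1 and RMI2, with which it resolves recombination junctions, differed by 0.17, -0.05 and -0.03. In the JNK branch MAP2K4 differed by 0.36, the upstream kinase MAP3K1 by -0.50, and the JNK kinases MAPK8 and MAPK9 by -0.34 and 0.00412. In the ERK5 branch MAPK7 differed by 0.89, and its upstream kinases MAP2K5, MAP3K2 and MAP3K3 by 0.31, 0.66 and -0.50. Other partners had values as high as or above those of their gene. MIEF2 differed by 0.55, against 0.59 for MIEF1 and 0.21 for DNM1L, and ZSWIM7 by 0.23, against 0.86 for its binding partner SWSAP1. COX10 differed by 0.81, against 0.94, 0.10 and -0.90 for SCO2, COX15 and SURF1, which also serve the assembly of cytochrome c oxidase. None of these partners passed the adjusted threshold, which does not show that they were equal between groups. The difference between a gene and its partners was not tested, because the genes were chosen for theirs.

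**Figure D4:**
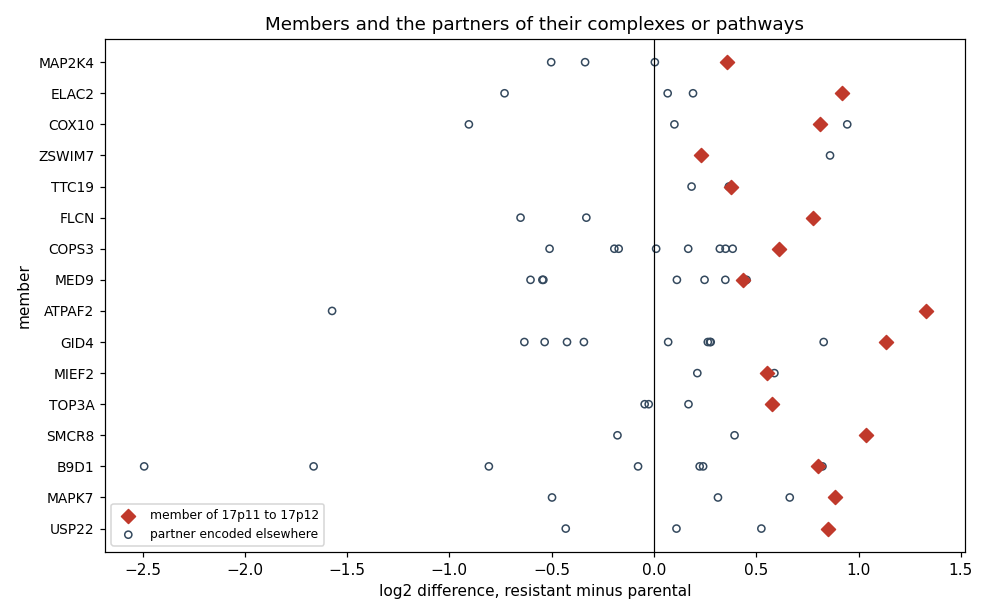
Log2 difference, resistant minus parental, of 16 tested genes of 17p11 to 17p12 (red diamonds) and of the partners of each that are encoded elsewhere (open circles). All diamonds lie right of 0, from 0.23 to 1.33, while the circles lie on both sides of it. ATPAF1, the only called partner, is at -1.57 beside ATPAF2 at 1.33. The lowest circles are CC2D2A at -2.49 and B9D2 at -1.66, beside B9D1 at 0.80, and neither was called.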

How the data were processed

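RNA of 3 MTX-resistant and 3 parental K562 samples was hybridised to Affymetrix HG U133 Plus 2.0 arrays, and the labels gave each sample its group and number. The deposited values were intensities on a linear scale, 1 signal per probe set, which the authors made with MAS5 (version not stated, per the submitters' processing notes). The division of each array by its 50th percentile that the methods describe was not present in the deposited intensities and was applied here. Values at or under 0.01 array medians were set to 0.01, and log2 was taken with no pseudocount. The control strength filter of the methods rests on an error model internal to their software, so here probe sets whose level averaged under 1 array median over the 6 arrays were left out. Of 54675 probe sets, 62 were controls of the manufacturer and 26692 were tested.

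Arrays were compared with limma 3.58.1 (lmFit and eBayes, R 4.3.3), two-sided, with Benjamini-Hochberg adjustment over all tested probe sets, and calls needed both an adjusted p below 0.05 and a difference of 2-fold or more. Errors of log2 differences are SE of the fit, with 3 arrays per group, and the number of arrays limits the precision. Of 41097 probe sets that named 1 gene, 41043 were matched by gene ID to RefSeq annotation of GRCh38.p14, which gave names and gene order. The build behind the deposited values is not given in the sources used here, and coordinates are printed for RefSeq promoters only. The genes of 17p11 to 17p12, their role groups, the partners and the markers were chosen with earlier results of these data known. Levels on each array were given for a fixed list of well-known genes, for called genes, and for the 3 with the largest and the 3 with the smallest difference, and outside the list for called genes and the nearest neighbours. Some genes of the list are not reported here. The alternatives were quantile normalization, the 75th percentile, values as deposited, other level filters and pseudocounts, probe sets without shared sequence, the mean of all probe sets of a gene, a replicate block, an intensity trend with a robust prior, the methods' t-test, and each array left out.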

Additional observations from a re-analysis of the deposited data

How the results depend on the processing

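No called gene named above changed sign under the alternatives run, and neither did the median of the 38 tested genes, of the other genes of the interval or of the flanks of 40 genes. Of 168 combinations of a result with an alternative, 119 kept the same side of the threshold or stayed within the spread. The median of the 17p11 to 17p12 genes, 0.64, was 0.44 in values as deposited, where the median of all tested genes was -0.18 in place of 0.02, so that the gap to it hardly moved. In those values 17 genes had resistant arrays above all parental arrays, 2 were called and the distal flank had a median of 0.35. With the mean of all probe sets of a gene, the median of the 38 genes was 0.53. Resistant arrays were then above all parental arrays for 18 genes, against 26 with the representative probe sets. Shares over all tested genes are not given for these alternatives. With a filter at 2 array medians, which keeps fewer genes, the median was 0.78, that of the other genes of the interval 0.99, and 2 partners were called. Without a level filter 0 genes of 17p11 to 17p12, 0 partners and 174 probe sets were called, against 4, 1 and 622 in the fit as reported. Scaling by the 75th percentile called 2 genes and 2 partners, and a pseudocount of 0.25 array medians called 2 partners. A pseudocount of 1 gave 0.38 for the distal flank, 2 partners and 1191 probe sets. Without probe sets of shared sequence, 0 partners and 394 probe sets were called. The intensity trend with a robust prior called 7 genes, 2 partners and 1133 probe sets, and the methods' t-test 1, 0 and 126. Without parental 1 and resistant 3, left out after the data were seen, 1 gene, 0 partners and 1014 probe sets were called, and the median of the other genes of the interval was 0.71. The causes of these changes were not tested.

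With each array left out in turn, the median of the 17p11 to 17p12 genes was 0.56 to 0.80. Of the 35 to 38 genes then tested, 31 to 32 were above 0 and 0 to 2 were called. The groups did not overlap, with resistant cells higher, for 26 to 29 of them. With fewer arrays a lack of overlap arises more easily by chance, and shares of all tested genes are not given at these settings. That range therefore cannot be compared with the count on all arrays. The median was 0.34 to 0.71 for the other genes of the interval, 0.41 to 0.60 for the distal flank and 0.44 to 0.92 for the q arm flank, with 0 to 1 partners and 204 to 1080 probe sets called. Deviations of same-numbered arrays from their group means correlated at -0.03 to -0.0064, so the arrays share only a number. A replicate block called 0 genes of 17p11 to 17p12 and 269 probe sets.

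Calls close to the threshold thus moved with single arrays and with the test, while the medians kept their sign. Probe sets near or under 1 array median lie in the range of background, and folds there are less certain than their size implies. Most of the differences of the 17p11 to 17p12 genes were under 2-fold and could not be called whatever their error.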
